A study of Glycine max with 2 samples.

Results

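Leaves of soybean (Glycine max) types with early and with late senescence were compared 95 days after sowing, a time when leaves of many soybean plants are ageing. The comparison rests on 2 RNA libraries, 1 of each type, and on all 2471 different transcripts in the authors' table for that age, of 4884 rows in the tables of both ages. Functions were described over the 2219 transcripts of 1905 genes with a deposited value of at least 100 in the higher library. The study set the types against each other at 50 and 95 days, and its title names the circadian clock. Both types were grown in a greenhouse under normal conditions with no treatment named, leaves were frozen in liquid nitrogen, and neither genotype names nor the number of plants pooled are given in the sources used here.

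The table calls its libraries A and B, and neither its headers nor the labels say which is the early type. The order in which the deposited records name the types was not taken as saying so. The names type A and type B are used for them here. Values are normalised reads, which is the deposited value minus 1. A fold of a named transcript with reads in both libraries carries a 95% interval, computed on the reads as an exact Clopper-Pearson binomial. Folds of sums over isoforms and ranges of folds carry none. A fold written as "at least" sets 3 reads in place of 0 in the library without any. Both cover counting error only, and with 1 library per type no difference has a replicate check. In bulk leaf RNA, fewer cells of a type cannot be told apart from less RNA per cell. The table holds isoforms with an unadjusted p under 0.05, so smaller differences are missing from it, and a value is that of 1 isoform and not of the whole gene.

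Leaf senescence is the ordered dismantling of a leaf, in which chlorophyll, chloroplast proteins and purines are broken down and their nitrogen, metals and carbon are sent to seeds and growing parts. The circadian clock, light receptors, ethylene, jasmonate and abscisic acid are among the cues that set its timing, and NAC and WRKY factors carry many of them. Iron is stored in plastids by ferritin and moved by nicotianamine-linked and NRAMP transporters. In Arabidopsis, a shortage of iron raises the bHLH factors ORG2 and ORG3, the reductase FRO2 and the ubiquitin ligase BRUTUS, and lowers ferritin.

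Of the 2219 transcripts, 1045 (47.1%) were higher in A and 1174 (52.9%) in B. Each was past 8-fold, from 11.9-fold upwards with a median of 82.0-fold. In 1615 of them the lower library had no read. Among the 604 with reads in both libraries 268 (44.4%) were higher in A and 336 (55.6%) in B, with folds of 11.9 to 18107. The median log2 ratio of B to A over all 2471 listed rows was 3.84. Centring on it would leave 1045 past 8-fold in A and 376 in B. The listing by p leaves out smaller ratios, so this median falls among transcripts higher in B and measures no offset between libraries. The fall to 376 follows from that and does not test the B count. The transcripts just inside and just outside the level of 100 were Glyma.12G114900.3, a wax ester synthase, with 99.6 normalised reads in B, and Glyma.14G203700.2, a WNK kinase, with 98.5 in B, neither having a read in A.

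**Figure D1:**
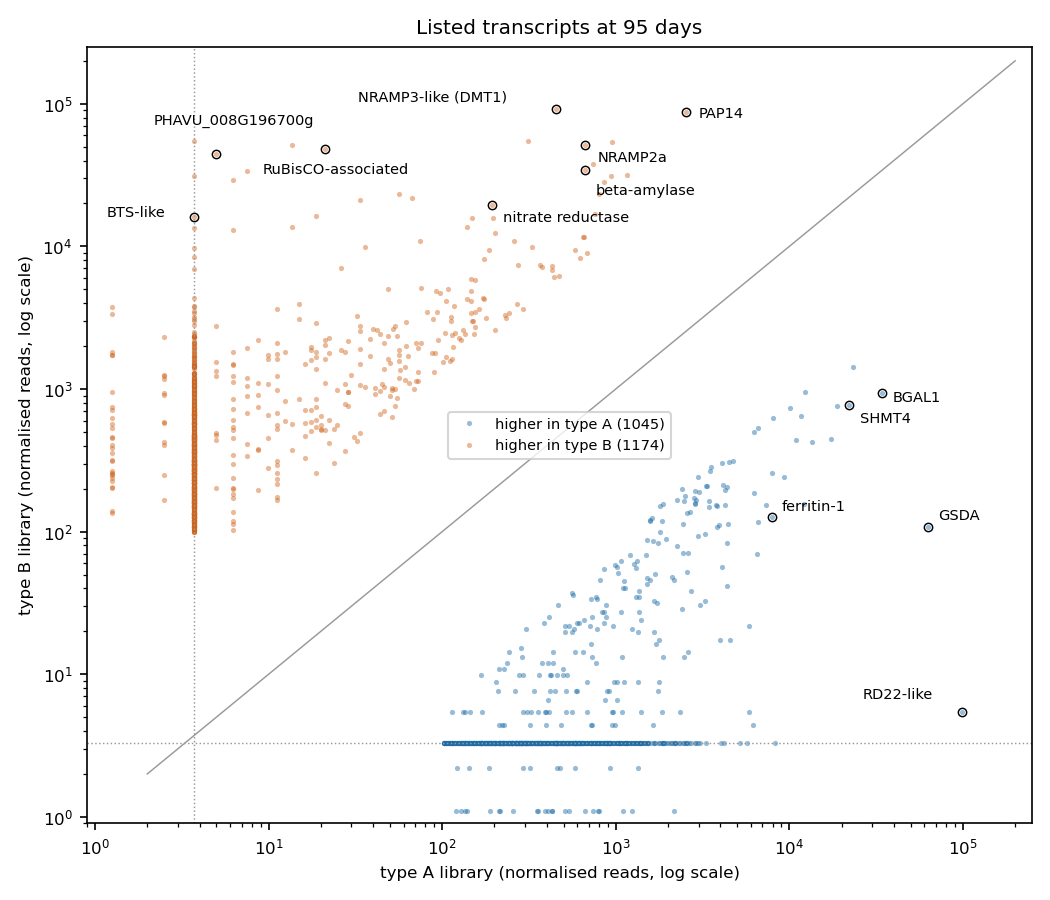
Normalised reads of each of the 2219 transcripts in type A (x axis) and type B (y axis), both on log scales, 1 point per transcript; transcripts with no read in a library are drawn on its dotted line, at 3 reads, beside those with 3. The diagonal marks equal reads, and no point lies near it, the nearest being 11.9-fold away.

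The most-read transcript on the A side was Glyma.04G180400.1, an RD22-like BURP domain protein of a family known from drought and abscisic acid responses, with 99044 in A against 5.47 in B, 18107-fold (7759 to 55767). Next was Glyma.15G186100.1, matched to GSDA, guanosine deaminase, an early enzyme of purine breakdown, with 62984 in A against 108 in B, 582-fold (478 to 716). The most-read on the B side was Glyma.17G165200.1, an NRAMP3-like metal transporter, with 91345 in B against 451 in A, 203-fold (183 to 225). It was followed by Glyma.04G236600.2, described as a probable plastid-lipid-associated protein of the chloroplast, with 87761 in B against 2543 in A. In B 36 transcripts reached 10000 normalised reads, and in A 13 did.

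The authors' deposited table held 37 transcripts whose adjusted p was under 0.05 and whose log2 ratio was at least 1 in size, termed called below, 19 higher in A (0.769% of the 2471) and 18 higher in B (0.728%). These p-values compare 2 libraries, not the types. All 19 called in A, and 13 of the 18 in B, had no read in the other library. In A they included Glyma.12G074100.2, the blue-light receptor phototropin-1, Glyma.02G262500.2, a ferritin, Glyma.12G229400.1, a phosphoenolpyruvate carboxylase, and Glyma.08G165800.2, matched to SIS8, a kinase of the MAP kinase kinase kinase family. In B they included 3 isoforms of a phosphoglycolate phosphatase gene, Glyma.18G244900, the plastid-lipid-associated Glyma.06G127700.4, the BRUTUS-like Glyma.09G115100.3 and the ORG3-like Glyma.03G130600.1. The adjusted p in the authors' deposited table was 0.0176 for Glyma.06G127700.4, 0.0271 for Glyma.09G115100.3 and 0.0349 for Glyma.12G074100.2.

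Word lists of 61 functions held at least 5 of the 2219 transcripts. More of a list's members were higher in A in 23 lists and in B in 31, and 7 were even. The lists with the highest share in A were pathogenesis-related proteins and glucanases, with 22 of 22, and WRKY factors, with 6 of 7. Those with all members in B were terpenoid synthesis with 9, small heat shock proteins with 8 and protease inhibitors with 5. The terpenoid list missed, by its wording, an ent-copalyl diphosphate synthase with isoforms on both sides, Glyma.19G157000.1 with 798 in A against no read in B and Glyma.19G157000.2 with 335 in B against no read in A. The lists and subgroups were drawn up or split with these values known, so their counts are descriptions.

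**Figure D2:**
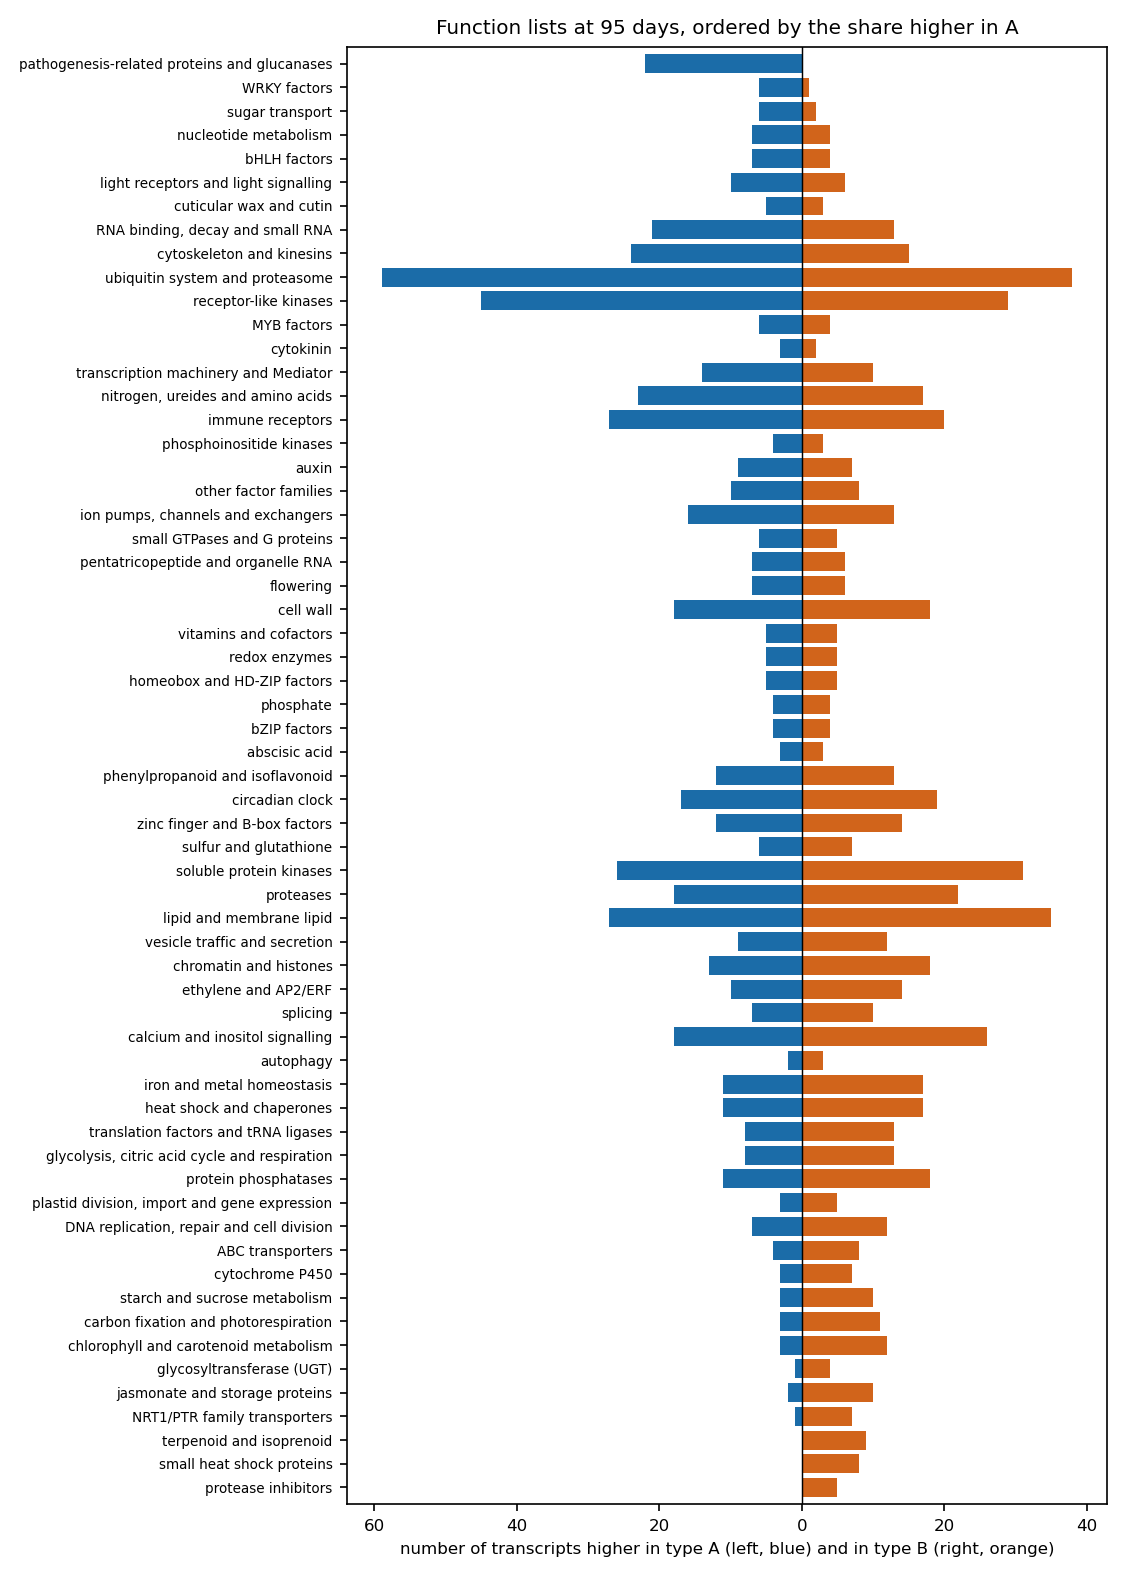
Number of transcripts higher in type A (left, blue) and in type B (right, orange) in each of 61 function lists, ordered by the share higher in A. Over all 2219 transcripts 47.1% were higher in A; the list at the top had all 22 in A, and the 3 at the bottom had all in B.

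Ferritin and YSL1-like transcripts were higher in A, and the NRAMP, ORG2 and ORG3-like and FRO2-like transcripts were higher in B. The iron and metal list had 28 transcripts, 11 higher in A and 17 in B, while among those with reads in both libraries 6 were on each side. All 5 ferritin transcripts, from 4 genes, were on the A side. Ferritin-1, Glyma.18G205800.1, had 7911 in A against 126 in B, 62.9-fold (52.3 to 76.3), and ferritin-2, Glyma.03G050100.1, had 4401 in A against 206 in B, 21.4-fold (18.5 to 24.9). The called ferritin Glyma.02G262500.2 had 2993 in A against no read in B, at least 912-fold, and Glyma.07G155200.1 had 1328 in A against 62.4 in B. Ferritin genes are close copies, so how reads were shared among them is uncertain, but each of the 4 lay on the same side. Also in A were 3 of 3 YSL1-like transporters, which carry metals bound to nicotianamine, the highest of them Glyma.20G217400.1 with 1543 in A against no read in B. The iron-sulfur protein NEET, Glyma.16G203100.1, had 2867 in A against 159.7 in B. Outside the list, the bHLH121-like factor Glyma.07G171600.1, whose Arabidopsis match acts upstream in the response to iron shortage, had 1485 in A against 68.9 in B.

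On the B side, both NRAMP transcripts stood far above A. Glyma.17G165200.1 is given above, and Glyma.05G101700.1, described as NRAMP2a, had 51295 in B against 666 in A, 76.98-fold (70.7 to 83.99). Their Arabidopsis match, NRAMP3, releases iron and manganese from the vacuole. Of 3 BRUTUS-like transcripts, the 2 of Glyma.09G115100 were in B. Glyma.09G115100.3 had 15942 in B against no read in A, at least 4267-fold, and Glyma.09G115100.1 had 7091 in B against 26.2 in A. The other, Glyma.08G044700.3 from a second gene, had 249 in A against no read in B. Nearby genes of the ORG2 and ORG3-like factors gave Glyma.03G130600.1 with 3016 in B against no read in A and Glyma.03G130400.1 with 1132 in B against no read in A. Ferric reductase FRO2-like Glyma.18G235900.1 had 570.0 in B against no read in A, at least 153-fold. Metallothionein Glyma.14G093100.1, a small metal-binding protein, had 23162 in B against 56.05 in A, 413-fold (309 to 567). All 4 copper amine oxidase transcripts, from 3 genes, were also in B, with 118 to 1449.5 normalised reads there and at most 7.47 in A.

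Superoxide dismutases, which remove superoxide, were found on both sides. Iron superoxide dismutase Glyma.10G193500.1 had 2109 in B against 46.1 in A, 45.8-fold (33.1 to 65.2). The transcript matched to a copper-zinc form, Glyma.03G242900.1, had 3826 in A against 152 in B, 25.2-fold (21.2 to 30.04).

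**Figure D3:**
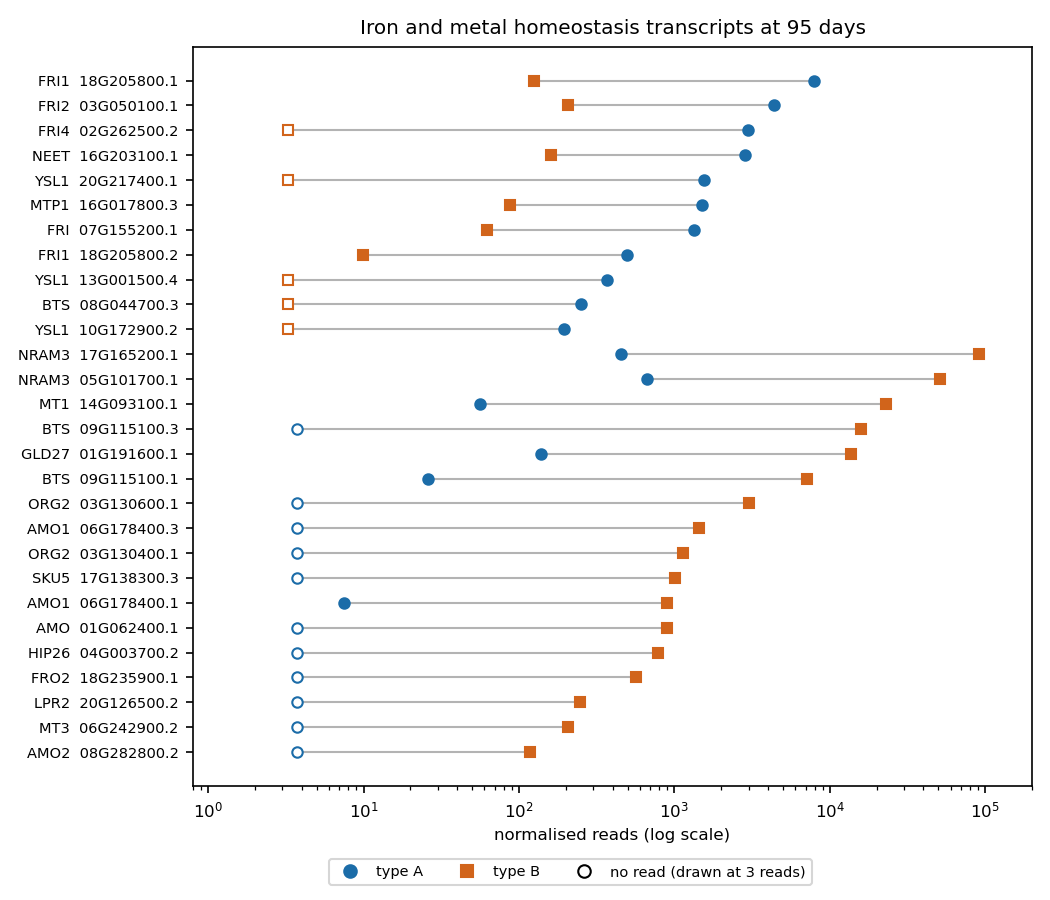
Normalised reads (log x axis) of the 28 iron and metal transcripts in type A (circles) and type B (squares), joined by a line; open symbols are libraries with no read, drawn at 3 reads. The 5 ferritin (FRI) and 3 YSL1 transcripts lie higher in A, and the 2 NRAMP (NRAM3), 2 ORG2 and the FRO2 transcripts higher in B.

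Several of the most-read B transcripts carry no functional annotation. Glyma.05G011200.1 and Glyma.17G119000.1 share 1 description, a hypothetical protein of common bean, and had 54850.4 in B against no read in A, and 51450.2 in B against 13.7 in A. Glyma.02G282300.1 and Glyma.14G032000.1 share another, and had 44292 in B against 4.98 in A, and 33630.3 in B against 7.47 in A. The last pair was called in B in the authors' deposited table, with adjusted p of 0.0449 and 0.0425. Both genes of each pair were on the same side.

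Enzymes of allantoate and ureide breakdown and several aminotransferases were higher in A, and transcripts for taking up and assimilating nitrate and ammonium were mostly higher in B. The nitrogen list had 40 transcripts, 23 higher in A and 17 in B, while among those with reads in both libraries 7 were in A and 9 in B. All 7 transcripts of 3 genes for allantoate and ureide breakdown, the route by which soybean recovers nitrogen from purines and from its transported ureides, were in A. The allantoate amidohydrolase Glyma.15G156900.3 had 4454 in A against 113 in B, 39.5-fold (32.5 to 48.6), and Glyma.09G050800.2, described as an allantoate deiminase, had 2439 in A against 71.1 in B. The GSDA enzyme, named above, acts earlier in the same route. The branched-chain aminotransferase Glyma.06G050100.1 had 5862 in A against 21.9 in B, 268-fold (173 to 439). All 3 listed isoforms of 1 tyrosine aminotransferase gene were in A, the highest, Glyma.06G235500.5, with 3045 in A against no read in B. Both asparagine synthetase transcripts, whose product is a long-distance nitrogen carrier, were in A, Glyma.11G171400.1 with 873 in A against 25.2 in B and Glyma.18G061100.3 with 428 in A against no read in B.

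Nitrate reductase Glyma.14G164900.1 had 19401 in B against 194 in A, 99.9-fold (85.3 to 118). The plastid glutamine synthetase Glyma.15G102000.1 had 4129.8 in B against 147 in A, 28.1-fold (23.4 to 34.04), and the ferredoxin-dependent glutamate synthase Glyma.19G130800.3 had 1632 in B against 48.6 in A. These enzymes also recapture the ammonium set free in photorespiration. The cytosolic glutamine synthetase Glyma.11G215500.2 was in B as well, with 2954 in B against 62.3 in A. Both listed ammonium transporters were in B, Glyma.10G168100.1 with 582 in B against 16.2 in A and its neighbour Glyma.10G168200.1 with 492 in B against 4.98 in A. Of 8 NRT1/PTR family transporters, which carry nitrate, peptides or hormones, 7 were in B, from 234 to 954 normalised reads. Arginase Glyma.03G028000.1 and urease Glyma.11G248700.2, which release nitrogen from arginine and urea, were also in B, with 3157 in B against 233 in A, and 1521 in B against no read in A. Asparaginases, which release ammonium from asparagine, divided, Glyma.14G086300.4 having 1503 in A against 47.04 in B and Glyma.06G043000.1 3664 in B against 11.2 in A.

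Photorespiration, the salvage of the by-product of Rubisco's reaction with oxygen, was represented mostly in B. Of 14 transcripts of carbon fixation and photorespiration, 11 were in B and 3 in A. All 6 phosphoglycolate phosphatase transcripts, of 3 genes, were in B, and this enzyme takes the first step of the route. Below the level of 100, an isoform of Glyma.09G247900 was listed on the A side, with 44.8 in A. Glyma.18G244900.2 had 6982 in B against no read in A, Glyma.18G244900.3 had 4376 in B against no read in A, and Glyma.18G244900.5 had 3783 in B against 1.25 in A. The serine-glyoxylate aminotransferase Glyma.08G302600.5 had 8379 in B against no read in A, at least 2243-fold. A subunit of the chaperonin that assembles Rubisco, Glyma.08G175900.2, had 7308 in B against 431 in A. Glyma.01G142400.1, described as a Rubisco-associated protein, had 47917 in B against 21.2 in A, 2263-fold (1413 to 3885). On the A side, serine hydroxymethyltransferase 4, Glyma.13G222300.3, which makes one-carbon folate units, had 22145 in A against 778 in B. The other 2 in A were carbonic anhydrases, Glyma.01G030500.3 and Glyma.12G175800.2. Outside the list, the gamma subunit of the chloroplast ATP synthase, Glyma.15G107900.2, was also in A, with 23184 in A against 1432 in B, 16.2-fold (15.3 to 17.1).

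Chlorophyll and carotenoid transcripts were also mostly in B, 12 of 15. All 7 plastid-lipid-associated transcripts, of 4 genes, were in B, and the other 8 divided 5 in B and 3 in A, with enzymes of synthesis and of breakdown on both sides. The plastid-lipid-associated ones included Glyma.06G127700.2 with 23124 in B against 805 in A and the called Glyma.06G127700.4 with 13418 in B against no read in A. STAY-GREEN, Glyma.17G132900.1, which triggers chlorophyll breakdown, had 632 in B against no read in A, and the pheophytinase Glyma.09G226000.5, which removes the tail of the pigment, had 2111 in B against 70.99 in A, 29.7-fold (22.9 to 39.4). Chlorophyllide a oxygenase Glyma.14G150600.1, which makes chlorophyll b and has another listed isoform on the A side, had 752 in B against 8.72 in A, and phytoene synthase Glyma.18G111900.2, the entry to carotenoids, had 2320.3 in B against no read in A. In A were glutamyl-tRNA reductase Glyma.04G089800.1, the first committed step to chlorophyll, with 10862 in A against 442 in B, violaxanthin de-epoxidase Glyma.03G253500.2 with 1369 in A against 35.01 in B, and the chlorophyll b reductase NYC1-like Glyma.07G085700.2 with 349 in A against no read in B. The terpenoid list, with 9 of 9 in B, included the first enzymes of the plastid isoprenoid pathway, which feeds carotenoids and the chlorophyll tail. Deoxyxylulose phosphate synthase Glyma.07G252600.4 had 4144 in B against 105 in A, and the reductoisomerase Glyma.16G089000.2 had 1809 in B against 12.5 in A, 145-fold (78.8 to 304). Its other members were 2 beta-amyrin synthases, lupeol synthase, 2 squalene synthases, a terpene synthase and a second deoxyxylulose phosphate synthase.

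Most starch and sucrose transcripts were higher in B, 10 of 13. Beta-amylase Glyma.06G301500.1 had 34131 in B against 664 in A, 51.4-fold (47.2 to 56.1), and 2 isoforms of a plastid glucan phosphorylase, Glyma.20G026700.4 and Glyma.20G026700.1, had 5945 in B against 146 in A, and 3610.2 in B against 162 in A. Sucrose-phosphatase Glyma.10G086600.1, the last step of sucrose synthesis, had 583 in B against 2.49 in A, and both trehalose-phosphate phosphatases were in B, Glyma.12G005200.1 with 1214 in B against no read in A. A subunit of the first enzyme of starch synthesis, Glyma.12G042400.1, was in B too, with 154 in B against no read in A. The 3 in A were an isoamylase, Glyma.08G028400.2, and isoforms of an invertase and a sucrose synthase whose other listed isoforms were in B. Of 8 sugar transporters 6 were in A, led by the monosaccharide transporter Glyma.08G035300.3 with 4575 in A against 17.5 in B, 261-fold (161 to 458). The SWEET transporters, which let sugars leave cells, divided. Glyma.06G166800.3, described as SWEET15 and matched to Arabidopsis SWEET12, had 300.2 in A against no read in B, and the SWEET3-like Glyma.14G160100.1 had 298 in B against 6.23 in A. With reads in both libraries, 2 of 3 sugar transporters were in B.

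Morning MYB factors of the clock were higher in A and most pseudo-response regulators in B. The clock list had 36 transcripts, 17 in A and 19 in B, while among those with reads in both libraries 8 were in A and 2 in B. All 11 LHY and REVEILLE transcripts, of 8 genes, were in A. Below the level of 100, an isoform of the LHY gene Glyma.03G261800 was listed on the B side, with 33.9 in B. REVEILLE 1, Glyma.18G044200.1, had 4086 in A against 56.9 in B, 71.8-fold (54.6 to 96.4), and its copy Glyma.02G241000.1 had 2422 in A against 28.4 in B, 85.2-fold (57.9 to 131). Among transcripts of LHY, a morning repressor, the one with most reads, Glyma.16G017400.6, had 431 in A against 1.09 in B. Of 19 PRR transcripts, of 8 genes, 16 were in B, but only 2 had reads in both libraries, 1 on each side. These regulators repress LHY in turn through the day. PRR95-like Glyma.07G049400.16 had 2585 in B against 132 in A, 19.6-fold (16.1 to 24.02), and Glyma.19G260400.4 had 932 in B against no read in A. The 3 in A were an APRR7-like isoform and both listed transcripts of TOC1, the evening member, Glyma.17G102200.4 with 7993 in A against 259 in B, 30.8-fold (27.1 to 35.2), and Glyma.17G102200.2 with 638 in A against no read in B. The evening complex gene ELF3, Glyma.04G050200.3, had 4182 in A against no read in B, at least 1274-fold. Collection times of day were not given in the sources used here, and their part in these differences was not tested.

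Light signalling members divided by type. The phytochrome-interacting factor family, bHLH proteins of which some promote growth in shade and, in Arabidopsis, dark-induced leaf senescence, had 4 of 4 transcripts in A. PIF4-like Glyma.14G032200.1 had 2572 in A against 135 in B, 19.1-fold (15.9 to 23.1), and PIL1-like Glyma.10G138800.3 had 1603 in A against 3.28 in B, 488-fold (167 to 2371). Both transcripts of COP1, the ubiquitin ligase that removes light-response factors, were in A. Its partner SPA1 was in B in all 3 transcripts of that name, Glyma.16G027200.4 with 3403 in B against no read in A, and a SPA3-like transcript, Glyma.13G276700.3, was in A with 319 in A against no read in B. The blue-light receptors lay opposite each other. Phototropin-1 Glyma.12G074100.2 had 5186 in A against no read in B, at least 1580.2-fold, and phototropin-2 Glyma.08G264900.1 had 1726 in B against 1.25 in A, 1386-fold (248 to 54782). Both transcripts of WEB1, a protein of light-driven chloroplast movement, were in B, Glyma.16G095000.2 with 15756 in B against 196 in A. The florigen genes FT, Glyma.16G044100.1, and the FT2a-like Glyma.16G150700.1 were higher in B, with 1103 in B against 64.8 in A, and 1364 in B against 57.3 in A. The flowering list as a whole was near even, with 7 in A and 6 in B, and 1 and 3 among those with reads in both libraries.

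Every transcript of the pathogenesis-related list was higher in A. The 22 came from 20 genes, and 16 of them had reads in both libraries, so that their folds did not rest on a 0. Glucanases that cut the beta-1,3-glucan of callose and fungal walls gave 9, with Glyma.03G132700.1 at 9375 in A against 242 in B, 38.8-fold (33.9 to 44.5), and Glyma.11G095100.1 at 2333 in A against 5.47 in B, 426-fold (182 to 1315). Chitinases and a chitinase-domain protein gave 3, the highest Glyma.16G119200.1 with 3046 in A against 30.6 in B, 99.5-fold (68.6 to 149.98). Thaumatin-like proteins gave 3, from neighbouring genes, the highest Glyma.10G060300.1 with 1075 in A against 62.4 in B. PR10-like proteins gave 3, the highest Glyma.17G030200.1 with 1868 in A against 156 in B, and PR1-like Glyma.15G062400.1 had 1699 in A against 16.4 in B, 104-fold (62.5 to 185). The pathogen-related protein gene gave 2 isoforms, Glyma.06G123700.2 with 10106 in A against 736 in B and Glyma.06G123700.3 with 6596 in A against 116 in B. All 3 peroxidases were in A as well. Outside the list, Glyma.08G230400.1, matched to the major latex-like protein MLP43 of the wider PR10-related family, lay in B with 21314 in B against 33.6 in A. A separate list of small signalling and antimicrobial peptides had 2 of 2 in B. The higher, Glyma.06G044400.1, described as peamaclein and called in B, had 29332 in B against 6.23 in A. PR10 and thaumatin-like genes have near-identical copies, among which reads may have been divided.

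Of the immune receptors and their partners 27 of 47 were in A (57.4%), against 47.1% of all 2219 transcripts. Of 6 RPM1-like receptors, from neighbouring genes on chromosome 18 by their identifiers, 5 were in A, led by Glyma.18G086600.1 with 3551 in A against 282 in B and Glyma.18G083900.1 with 2592 in A against 71.1 in B. Of 13 TMV resistance protein N-like members 10 were in A, led by Glyma.03G047700.1 with 2721 in A against 38.3 in B. The highest in B was TAO1-like Glyma.06G265000.1, with 4343 in B against 172 in A. The lipase-like immune regulator EDS1 had isoforms on both sides, Glyma.06G187400.1 with 1389 in A against 24.1 in B and Glyma.06G187400.3 with 662 in B against no read in A. Receptor-like kinases of the cell surface had 45 of 74 in A (60.8%), and 13 of the 16 with reads in both libraries. An example was Glyma.09G018900.1 with 6537 in A against 70.02 in B, 93.4-fold (73.0 to 121). These gene families are large and their copies alike, so single counts are uncertain.

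Inhibitors of proteases, vegetative storage proteins and small heat shock proteins were higher in B. The 5 inhibitors, 4 of them of the Kunitz type, all had reads in both libraries. The cystatin Glyma.14G038300.1, which blocks papain-like proteases, had 16366 in B against 18.7 in A, 876-fold (531 to 1566), and Kunitz inhibitor Glyma.16G212500.1 had 7426 in B against 367 in A, 20.2-fold (17.99 to 22.8). All 3 vegetative storage protein transcripts, which hold nitrogen in soybean leaves and are induced by jasmonate, were in B. The highest, Glyma.08G200100.1, had 13608 in B against 13.7 in A, 993-fold (555 to 1990.3). Both allene oxide cyclases, enzymes of jasmonate synthesis, were in B, Glyma.18G280900.1 with 2335 in B against 48.6 in A. Of 5 lipoxygenases, the 4 of the 9S type were in B, Glyma.15G026400.2 with 5067 in B against 75.97 in A. The 1 in A was of the chloroplast 13S type, which leads to jasmonate, Glyma.13G030300.1 with 2871 in A against 155 in B. The small heat shock proteins, which hold unfolding proteins in solution, were 8 of 8 in B, from 115 to 1715 normalised reads there and at most 63.5 in A. The class V member Glyma.15G106700.1 had 1715 in B against 63.5 in A, 27.01-fold (20.4 to 36.4). The wider chaperone list had 17 of 28 in B (60.7%), against 52.9% of all 2219 transcripts.

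Proteases themselves were near the background, with 18 of 40 in A, but their families differed. All 4 matrix metalloproteinase transcripts were in A, led by Glyma.01G036900.1 with 6219 in A against 187 in B, 33.2-fold (28.5 to 38.9), and all 6 subtilisins were in B, with 146 to 789 normalised reads there. Papain-like proteases, a class active in senescing leaves, divided. Glyma.07G205400.1, ervatamin-like, had 6134 in A against 4.38 in B, 1402-fold (547 to 5147), and Glyma.14G085600.1, matched to RD21B, had 54533 in B against 314 in A, 174-fold (154 to 197). Both peroxisomal Lon protease isoforms were in A, Glyma.01G203100.3 with 2168 in A against 45.9 in B.

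The cell wall list was even, with 18 on each side. The beta-galactosidases, which trim galactose from wall polymers, divided, BGAL3-like Glyma.02G051700.1 having 2980.0 in B against 151 in A. Beta-galactosidase 1, Glyma.15G023800.1, had 34199 in A against 933 in B, 36.6-fold (34.2 to 39.3). Of 7 xyloglucan endotransglucosylases, which cut and rejoin the wall's xyloglucan, 6 were in A. Glyma.08G107300.1 had 18714 in A against 766 in B, 24.4-fold (22.7 to 26.4), and the 1 in B, Glyma.01G196800.1, had 2198 in B against 94.7 in A. Beta-xylosidase Glyma.15G143700.1 had 13434 in A against 422 in B, and the pectinesterase Glyma.09G077100.1 had 7366 in A against 154 in B. In B the highest was Glyma.09G231900.1, an invertase or pectin methylesterase inhibitor, with 54226 in B against 957 in A, 56.7-fold (52.8 to 60.96), and 2 cellulose synthase-like G transcripts, Glyma.04G255400.1 and Glyma.06G324300.1, had 2192 in B against 21.2 in A, and 1737 in B against 56.05 in A. The 3 ketoacyl-CoA synthases, which lengthen fatty acids for wax, were all in A, Glyma.15G042500.1 with 2597 in A against 14.2 in B, 183-fold (107 to 344). The wax and cutin list as a whole had 5 in A and 3 in B. Its most-read member was the LACS1-like Glyma.02G010300.3, with 3462 in B against 154 in A. The patatin-like lipase Glyma.07G115400.1, called in B, had 12999 in B against 6.23 in A, 2087-fold (894 to 6429.9).

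Phenylpropanoid transcripts were near even, 12 in A and 13 in B. The 3 isoflavone reductase-like transcripts, whose namesake acts in making pterocarpan defence compounds, and the 2 chalcone synthases were in A. Glyma.11G070600.1 had 1858 in A against 5.47 in B, 339.7-fold (145 to 1048). The 3 laccases, which polymerise lignin, were in B with 108 to 159 normalised reads and no read in A. Glyma.02G283500.1, described as hydroxycinnamoyltransferase-like, had 6831 in B against 431 in A, 15.9-fold (14.2 to 17.7). A gene described as a hydroxycinnamoyltransferase, with a different Arabidopsis match, had isoforms on both sides. Glyma.07G021600.2 had 496 in A against no read in B and Glyma.07G021600.1 had 185 in B against no read in A. Chalcone synthase genes are near-identical, so which copy was read is uncertain.

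Apart from jasmonate, the hormone lists were near even, and single regulators stood apart. EIN2, Glyma.03G181400.1, the central transducer of ethylene, had 2552 in A against no read in B, at least 778-fold, and EIN3, Glyma.20G051500.2, the factor it activates, had 681 in A against no read in B. In B the RAP2.7-like AP2 factor Glyma.12G073300.3 had 1149.8 in B against no read in A. The abscisic acid list had 3 on each side. Abscisic acid 8'-hydroxylase, which inactivates the hormone, had 1018 in A against 56.9 in B in Glyma.01G153300.1 and 599.5 in B against 12.5 in A in Glyma.09G282900.1. XERICO, Glyma.18G013800.1, which raises abscisic acid in Arabidopsis, had 2111 in B against 11.2 in A, 188-fold (99.02 to 413). The cytokinin receptors matched to AHK4, Glyma.05G241600.3 and Glyma.08G049000.4, were both in A, with 352 in A against 3.28 in B, and 291 in A against 2.19 in B. All 3 NAC transcripts and 6 of 7 WRKY transcripts were in A. The leading NAC, Glyma.01G088200.1, had 1141 in A against no read in B, and Glyma.01G051300.1, matched to NAC29 (NAP in Arabidopsis, a promoter of leaf senescence), had 225 in A against no read in B. The WRKY transcript with most reads, Glyma.02G141000.4, had 858 in A against 54.7 in B, and Glyma.18G081200.2 and Glyma.18G081200.3, isoforms of 1 WRKY20-like gene, lay on opposite sides.

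The ubiquitin list, the longest, had 59 of 97 in A (60.8%), and RNA binding and decay had 21 of 34 (61.8%). Over all 2219 transcripts 47.1% were in A. Members called in A in the authors' deposited table were the ligase UPL1-like Glyma.08G087600.2 with 2336 in A against no read in B, a proteasome subunit Glyma.14G014800.4 with 1863 in A against no read in B and Pumilio Glyma.12G060600.3, an RNA-binding repressor, with 2096 in A against no read in B. DCAF1 Glyma.04G073900.3, a ubiquitin ligase adaptor that the word lists did not hold, was also called in A, with 2213 in A against no read in B. Dicer-like 1, Glyma.19G261200.3, which makes microRNAs, had 2197 in A against no read in B. Of 15 kinesins, microtubule motors, 11 were in A, led by NACK2-like Glyma.01G168200.2 with 1214 in A against no read in B, and both beta-tubulins were in B, Glyma.17G258300.1 with 9948 in B against 331 in A and Glyma.04G023900.1 with 9369 in B against 585 in A. Calcium and inositol signalling had 26 of 44 in B (59.1%) and protein phosphatases 18 of 29 (62.1%), against 52.9% of all 2219 transcripts.

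Opposite isoforms of the same gene made up part of the table. Of 280 genes with more than 1 listed isoform, 145 (51.8%) had isoforms on both sides, and 128 did among transcripts of 100 or more, giving 282 of the 2219 transcripts. Summed over their listed isoforms, 79 of these 128 genes differed by less than 2-fold, and the median over all 128 was 1.70-fold. THIC, Glyma.18G065700, which makes the pyrimidine part of thiamine, had 17347 in A against 445 in B for isoform 3 and 31020.0 in B against no read in A for isoform 2, and the sums were 17347 in A and 31465 in B, 1.81-fold. The energy sensor kinase KIN10, Glyma.13G060400, had 2261 in A against 167 in B for isoform 1 and 2052 in B against no read in A for isoform 3, and its sums, 2260.5 in A and 2219.7 in B, differed by 1.02-fold. The corepressor TOPLESS, Glyma.08G214600, and the nuclear lamina protein CROWDED NUCLEI 1, Glyma.18G280500, had sums 1.87-fold and 1.73-fold higher in A. The cold-regulated gene Glyma.12G047500 was called on both sides, with 2315 in A against no read in B for isoform 3 and 9704 in B against no read in A for isoform 2, and its sum was 4.19-fold higher in B. In the other 49 genes the sums differed by 2-fold or more. The ferritin, YSL1, NRAMP, BRUTUS, pathogenesis-related, protease inhibitor and small heat shock transcripts above, and those of the terpenoid list, belonged to no such gene.

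**Figure D4:**
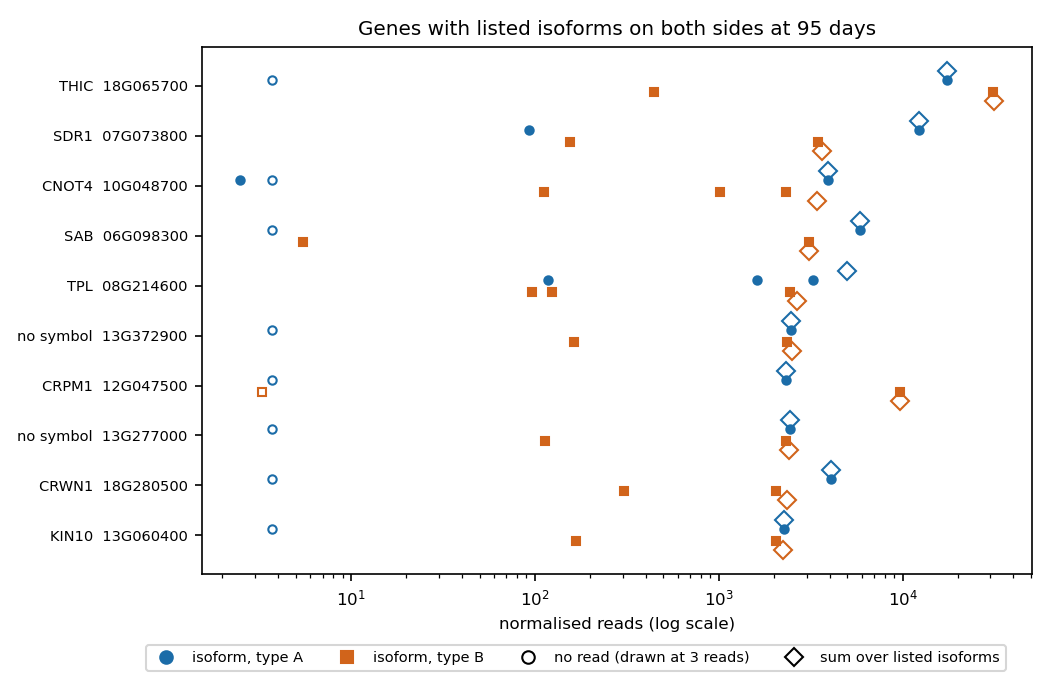
Normalised reads (log x axis) of each listed isoform in type A (blue circles) and type B (orange squares) for the 10 genes with the most-read isoforms on both sides; open circles and squares are libraries with no read, drawn at 3 reads, and diamonds are sums over the listed isoforms. Single isoforms lie far apart between the types, while the 2 diamonds of a gene are at most 4.19-fold apart.

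Of the 2219 transcripts, 731 were also listed at 50 days, 32.9% of them and 30.3% of the 2413 in that table. Nothing states that A is the same type at both ages, so the sides are set side by side only. At both ages 292 were higher in A and 203 in B, while 73 were in A at 95 days and in B at 50, and 163 in B at 95 days and in A at 50. The RD22-like Glyma.04G180400.1 and RD21B-like Glyma.14G085600.1 kept their columns, with 73517 in A against 7.51 in B, and 259 in A against 23619 in B, at 50 days. So did GSDA Glyma.15G186100.1, with 13059 in A against 426 in B, and the pathogen-related Glyma.06G123700.2, with 9937 in A against 43.2 in B. The pectin methylesterase inhibitor Glyma.09G231900.1, in B at 95 days, had 10672 in A against 100.5 in B at 50 days. PRR95-like Glyma.07G049400.16, also in B at 95 days, had 11597 in A against 74.2 in B, and TOC1 Glyma.17G102200.4, in A at 95 days, had 51.4 in A against 1574 in B. FT Glyma.16G044100.1 had 266 in A against no read in B and FT2a-like Glyma.16G150700.1 191 in A against no read in B. Of the ferritin, YSL1, NRAMP, BRUTUS and ORG transcripts, 1 was in the 50-day table, YSL1-like Glyma.10G172900.2, with 555 in A against 10.3 in B. A transcript that is not listed may still have been read.

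Markers of leaf mesophyll gave 1 listed transcript, an antenna protein of photosystem I, Glyma.19G261400.1, with 1061 in B against 33.6 in A. Below the level of 100, a Rubisco activase transcript, Glyma.03G068100.1, had 77.2 in A against no read in B. The other leaf markers looked for, among them small Rubisco subunits, had no listed transcript, which leaves their levels unknown. Of other cell types, guard cell words matched 3 transcripts (1 in A), phloem words 2 (both in B), seed words 2 (both in B) and nodule or root words 2 (both in A). The matches rest on words in the names. The highest was a lectin, a seed word, Glyma.02G156800.1, with 9910.4 in B against 36.1 in A. The 2 phloem transcripts, sieve element occlusion proteins, had no read in A and 133 to 958 in B. The part of tissue makeup in the differences above was not tested.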

How the data were processed

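Leaf RNA was extracted with a Genall Ribospin kit and read on the Illumina NovaSeq platform according to the labels' protocols, with 1 library per type at each age. The submitters' processing notes name Trimmomatic 0.36 and DESeq 1.36.0. Not given in the sources used here were the aligner, counter, genome build, annotation and library depth, and whether reads were counted or estimated per isoform. The authors deposited, for libraries A and B, a signal per isoform equal to scaled reads plus 1. For each isoform with p under 0.05 the authors' deposited columns add a log2 ratio of B to A. The p-value, raw and adjusted, is also the authors', per the file headers. Column sums over such a list are not depth, and no total count per library is given.

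Subtracting 1 left whole multiples of 1.245 in A and 1.094 in B within 0.01 of a read, which gave the reads and size factors of 0.803 and 0.914. Folds are ratios of normalised reads, with 3 reads in place of 0, and the 95% intervals were exact. One library per type allowed no test of its own, and the deposited p-values compare 2 libraries. Functions came from 78 word lists matched on symbol, Arabidopsis match and description, 61 with at least 5 transcripts, and 38 subgroups. Members, lists and subgroups were chosen with earlier results of these data known, and some lists were corrected or split after their matches and values were seen. Transcripts were named by rule. The rule took those the authors called, up to 3 a side per list by reads and 2 by ratio, the 10 a side with the most reads, and the 10 leading genes with opposite isoforms and transcripts at both ages. The others named were chosen after their values were seen. Functions come from the deposited annotation. Sequences and coordinates were not used here. Alternatives changed the level, the treatment of 0 reads, the fold, the centring, the p and the use of isoforms. The tools were matplotlib 3.10.9, scipy 1.17.1, numpy 2.4.6, pandas 2.3.3 and Python 3.11.15, and the scripts were tested on simulated data.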

Additional observations from a re-analysis of the deposited data

Results flagged for a closer look

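Of the transcripts of 100 or more that were listed at both ages, 236 had the higher library on opposite sides at 50 and 95 days. They made up 32.3% of the 731 shared transcripts, 73 of them in A at 95 days and 163 in B. They are given here because the library with more reads was not the same one at both ages. The difference was not tested, with 1 library of each type at each age, and nothing states that A names the same type in both tables. Among the clock genes with sides that differ were the TOC1 and PRR95-like transcripts described above, and among transporters Glyma.08G070800.2, an ABCG11-like exporter of cuticular lipids, had 3019 in B against 148 in A at 95 days and 29775 in A against no read in B at 50 days. The ABCC3-like Glyma.05G145000.1 had 16959 in B against 756 in A at 95 days and 4913 in A against 95.8 in B at 50 days.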

How the results depend on the processing

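No paired analysis was possible because there is 1 library per type with no replicate numbers, so leaving out a replicate was not possible either. Of 38 alternatives listed at the start 25 stayed within 1.5 times of the reported value. With a level of at least 300, the transcripts past 8-fold were 673 in A and 723 in B, genes with isoforms on both sides were 85, and transcripts also listed at 50 days were 478. With transcripts of 0 reads in the lower library left out, 268 in A and 336 in B were past 8-fold, and of the authors' calls 0 remained in A and 5 in B, since all 19 calls in A had no read in B. Centring on the median of the listed ratios left 376 past 8-fold in B, which follows from where that median falls and does not test the count. In the authors' deposited table, an adjusted p under 0.1 gave 66 calls in A and 66 in B, and at an unadjusted p under 0.001, 163 in A and 155 in B. Between 17 and 24 function lists had more members in A, against 23 as reported. A further 40 alternatives, chosen after seeing the data, kept transcripts with reads in both libraries or genes without opposite isoforms. In 33 of them the share higher in A stayed within the exact 95% binomial interval of the reported share, which is wide for short lists. Isoforms and gene copies from the same pair of libraries are not replicates, and each alternative keeps part of the same transcripts. The interval was thus a yardstick for size only, and staying within it is no test. A share of 0% or 100% falls outside it wherever the reported share is neither. With reads in both libraries, the share higher in A went from 47.2% to 80% for the clock, from 60.8% to 81.2% for receptor kinases and from 75% to 33.3% for sugar transport. It went to 0% for starch and sucrose, with 6 such transcripts, and for NRT1/PTR transporters, with 4. The WRKY share went to 100% under both, but on 1 transcript with reads in both libraries and 5 of genes without opposite isoforms. The listing by p, which leaves out every difference of smaller size, and 1 library per type limit all of these values.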

Other observations

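By the chromosome number in the gene identifiers, the share of transcripts of 100 or more that were higher in A ranged from 34.2% on chromosome 19, 39 of 114 transcripts, to 56.2% on chromosome 1, 54 of 96. Chromosome 17 had 38 of 108 in A, chromosome 7 had 45 of 124 and chromosome 16 had 36 of 95. Over all chromosomes 47.1% were higher in A. These shares were not tested.

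Of the 2219 transcripts, 955 matched no word list, 429 higher in A and 526 in B. The description of 535 held the word uncharacterized, though 2178 of the 2219 had an Arabidopsis match.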
